A study of Mus musculus with 30 samples.

Results

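The genes described here encode the kinases and the phosphatase through which calcium and calmodulin act at cortical synapses, together with the calmodulin-binding protein neurogranin. They are Camk2a, Camk2b, Camk2d and Camk2g, the 4 subunit genes of calcium/calmodulin-dependent protein kinase II (CaMKII); Camk4, the gene of the mainly nuclear kinase CaMKIV; Ppp3ca, Ppp3cb and Ppp3r1, the genes of 2 catalytic subunits and of 1 regulatory subunit of calcineurin; and Nrgn, the gene of neurogranin. Every probe set whose array annotation gave 1 of these 9 symbols alone was taken, which made 24 probe sets. Of these, 9 were on array type A, 12 on B and 3 on C. The annotation named 15965 genes in this way over the 3 chips.

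RNA came from V1, the primary visual area of the mouse cortex, at postnatal days 14, 28 and 60 (P14, P28 and P60), with 3, 3 and 4 litters. All mice had standard rearing, V1 was microdissected, and the RNA of each of the 10 litters was hybridised to 3 Affymetrix array types, MG-U74Av2, MG-U74Bv2 and MG-U74Cv2 (chips A, B and C). The sources used here give no strain, sex or number of animals per litter sample. The deposited value is the MAS5 signal, a brightness on a linear scale that can be compared between litters for 1 probe set but not between probe sets.

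As background, calcium that enters a spine through NMDA receptors binds calmodulin, and the complex activates CaMKII and calcineurin. The kinase adds phosphate to synaptic proteins and the phosphatase removes it; CaMKII activity is needed for long-term potentiation and calcineurin activity for long-term depression. CaMKII is a holoenzyme of many subunits, in forebrain excitatory neurons mostly of the alpha and beta forms, and alpha-CaMKII is needed for normal ocular dominance plasticity in mouse V1. Neurogranin is a small postsynaptic protein that holds calmodulin at low calcium and releases it when calcium rises. The ages compared run from about eye opening, through the critical period of ocular dominance plasticity, to the young adult.

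Array quality was uneven. On the 3 arrays of P14 litter 1, control probe sets at the 3' end of a transcript outshone those at its 5' end by a ratio of 9.57 to 12.2 for Gapdh and 12.2 to 12.8 for Actb, and on the other 27 arrays the ratio was 0.741 to 1.32 and 1.04 to 1.5. Values are therefore also given without P14 litter 1. They are given too for a restricted set of arrays, which further leaves out P60 litters 1 and 4 on chips A and B and P60 litter 2 on chip C, the arrays least like the rest. Of the markers of cortical excitatory neurons, 4 of 6 had a probe set, none stood at 0, and Emx1 averaged below the 95th percentile of the Bacillus control probe sets, used here as the background level. Their summed signal was 13380 to 15851 at P14, 11011 to 13632 at P28 and 10158 to 16242 at P60, so the 3 ages overlapped. Markers of some other cells in the sample did move with age. The 5 measured of 6 mature oligodendrocyte markers summed to 3895 to 7356 at P14, 8712 to 14281 at P28 and 9823 to 13926 at P60, and the 5 meningeal markers to 10266 to 10817, 5897 to 6434 and 5269 to 6625 at these ages, with none at 0 in either list. The 3 blood markers summed to 5155 to 23776 at P14, 24329 to 33710 at P28 and 16849 to 50866 at P60. Among markers outside the dissected region, the 3 measured of 4 for the hippocampal formation summed to 157 to 199 at P14, 231 to 304 at P28 and 272 to 496 at P60, and the 3 for choroid plexus to 121 to 191, 261 to 383 and 281 to 513, where 2 markers in each list averaged below the Bacillus level. The 4 oligodendrocyte progenitor markers summed to 4676 to 10806 at P14, 5550 to 9616 at P28 and 3688 to 6538 at P60, with overlap. Their part in the results was not tested. In whole tissue, fewer cells of a type and less RNA per cell cannot be told apart.

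No member passed the test at any age, while the measured values of most members were lower at P60 and at P28 than at P14. The lowest adjusted p among them was 0.0903, for a probe set of Ppp3cb that was lower in every P60 and P28 litter than in any P14 litter. With all litters, Camk2d, Ppp3ca and Ppp3cb had lower mean log2 signals at P60 than at P14 on each of their tested probe sets. Camk2g had higher ones on each of its 3, and the probe sets of Ppp3r1 and of Nrgn disagreed in direction. The 2 probe sets of Camk2a spread widely within P14 and within P60, and their intervals were the widest among the members for P60 against P14.

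Of the 24 probe sets, 21 passed the filter on low signals, with at least 1 for each of the 9 genes, and were tested with limma together with all others, 20724 in all. A probe set counted as called at a Benjamini-Hochberg adjusted p under 0.05. For P60 against P14, limma called 0 of 21, where 0.396% of all tested probe sets were called. At an unadjusted p under 0.05, 7 of 21 (33.3%) were lower at P60, against 7.93% of all tested probe sets, and 0 were higher, against 7.81%. The 7 probe sets belong to 6 genes: Camk2d has 2 of them, and Camk4, Ppp3ca, Ppp3cb, Ppp3r1 and Nrgn have 1 each. The log2 change was negative in 16 of 21 (76.2%), against 45.2% of all, and its median was -0.32 among the members and 0.06 over all tested probe sets. In 2 of 21 every P60 litter was below every P14 litter, against 6.42% of all, and in 0 every P60 litter was above, against 6.61%. Probe sets of 1 gene share a target and the 9 genes are measured on the same litters, so these counts describe the members and carry no test.

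For P28 against P14 the members stood in much the same way. Limma called 0 of 21, against 0.00483% of all tested probe sets, which is a single one. At an unadjusted p under 0.05, 4 were lower at P28 (19.0%, against 3.62% of all) and 0 were higher (against 4.25%). Values of the 2 ages did not overlap in 4 probe sets that were lower at P28 (against 8.41% of all) and in 2, both of Camk2g, that were higher (9.52%, against 9.45% of all). The log2 change was negative in 15 of 21 (71.4%), against 47.1%, with a median of -0.29 against 0.03 over all. The comparisons of P28 and of P60 share the P14 litters, so they are not independent. For P60 against P28 limma called 0 of 21, against 0% of all tested probe sets. At an unadjusted p under 0.05, 0 were lower and 0 higher, against 2.38% and 3.04% of all. The members' log2 changes ran from -0.71 to 0.24, with a median of -0.11 against -0.0083 over all. The F test over the 3 ages called 0 of 21, against 0.111% of all. At an unadjusted p under 0.05 it had 3 of 21 (14.3%), a share near the 11.3% of all tested probe sets.

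These counts depended on the arrays used. In limma's estimated array weights, the arrays of P14 litter 1 weighed 0.105 to 0.354 and the others 0.342 to 5.31. The highest weight was that of P14 litter 3 on chip B, where P14 litters 1 and 2 weighed 0.164 and 1.44. The P14 mean on chip B thus leaned on 1 litter. With these weights 7 of 21 members were called for P60 against P14, all lower at P60. Of all tested probe sets, 9.40% were called lower and 8.07% higher. Without P14 litter 1, 0 members were called in any comparison, against 2.40% of all for P60 against P14. At an unadjusted p under 0.05, 7 members were then lower at P60, against 10.4% of all, and 0 were higher. These 7 were not the same set as with all litters. Camk2g 117137_at, higher at P60 with all litters, was among them. The members' median log2 change for P60 against P14 was -0.38 without that litter and -0.15 in the restricted set, against 0.02 and 0.01 over all tested probe sets.

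**Figure D1:**
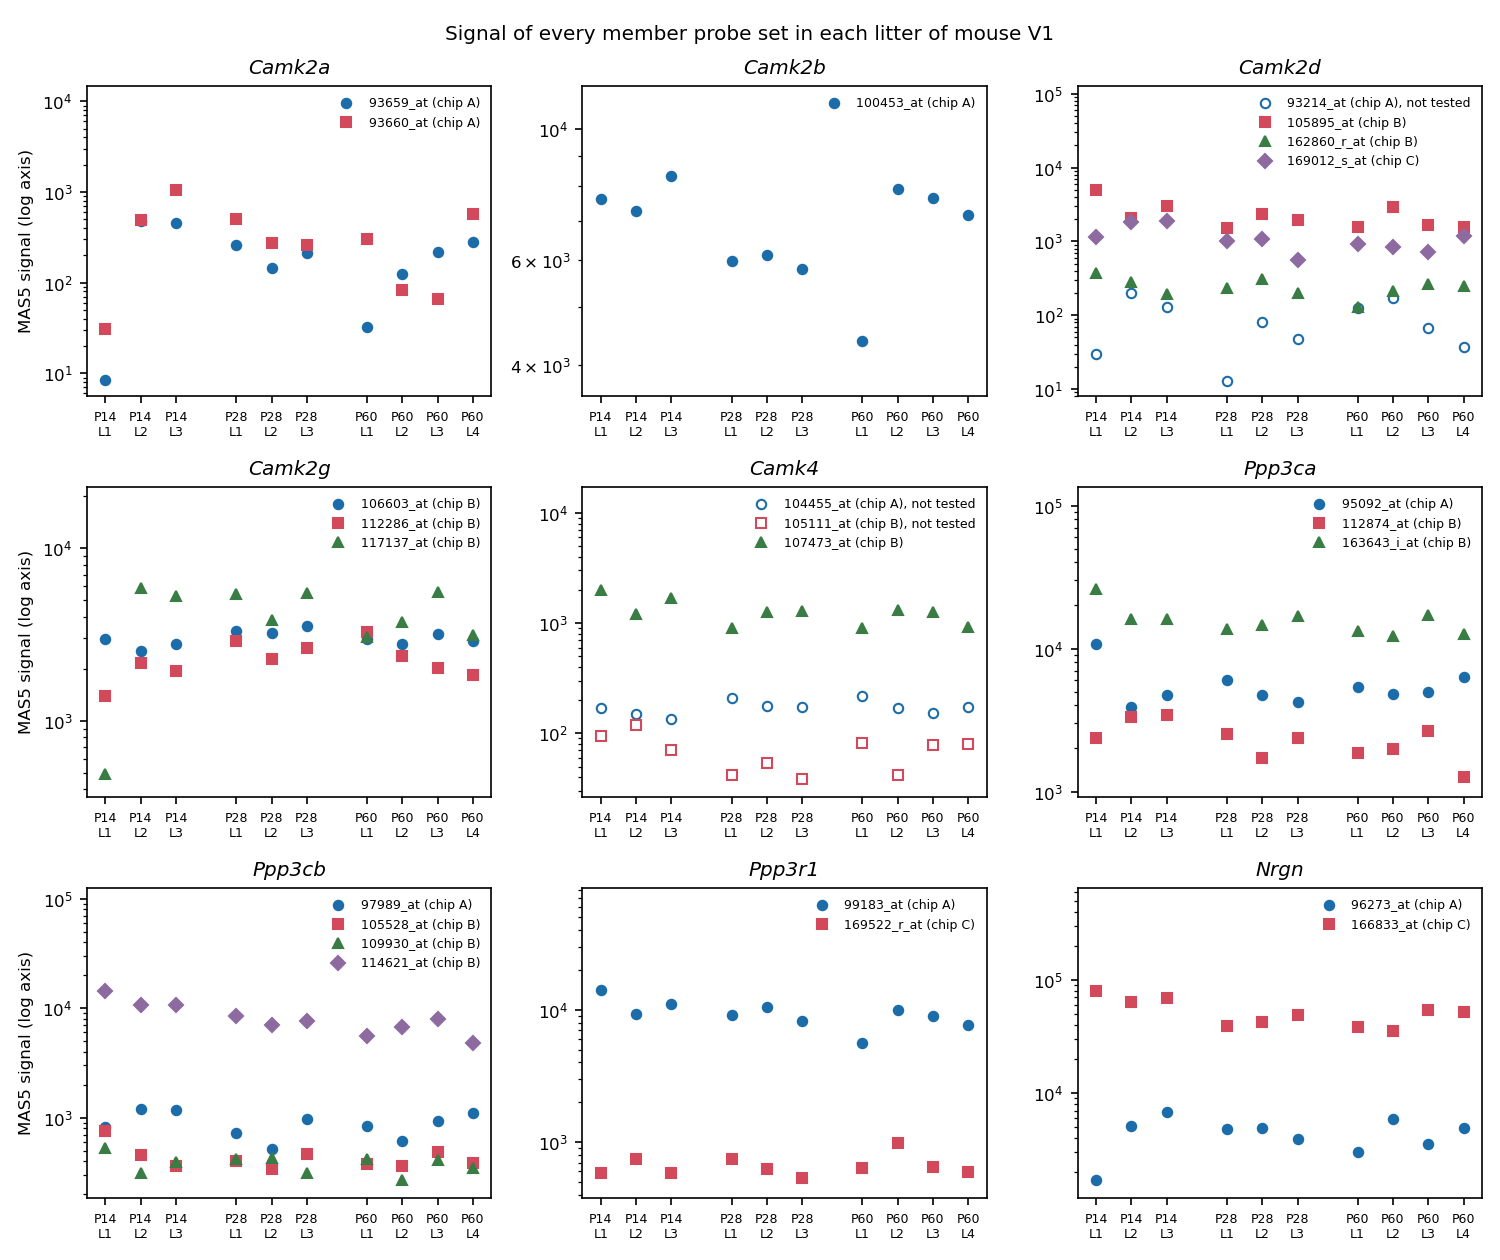
MAS5 signal of the 24 member probe sets in each litter, 1 panel per gene, on log axes whose range differs between panels; litters (L1 to L4) run by age from P14 through P28 to P60, and open symbols mark the 3 probe sets that were not tested. Ppp3cb 114621_at and Nrgn 166833_at are higher in the P14 litters than in all later ones, and P14 litter 1 stands far from its age mates for Camk2a, Camk2g 117137_at and Nrgn 96273_at.

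Camk2a encodes alpha-CaMKII, the form known for its role in plasticity of V1. Probe set 93660_at gave signals of 30.8, 494 and 1064 in the P14 litters, 506, 276 and 262 in the P28 litters and 303, 83.7, 65.6 and 576 in the P60 litters. The 3 ages overlapped, and P14 litter 1 and P60 litters 2 and 3 were below the Bacillus level of 98.4 for chip A. Its log2 change was -0.60 for P60 against P14, with a standard error of 0.833 and a 95% interval of -2.41 to 1.22 (limma adjusted p = 0.753), so the interval holds both large decreases and increases. Probe set 93659_at gave 8.53, 484 and 455 at P14, 262, 144 and 214 at P28 and 32.8, 126, 219 and 283 at P60, again with overlap, and a log2 change of -0.38 (interval -2.05 to 1.29, adjusted p = 0.832). For P28 against P14 the changes were 0.11 and 0.06.

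For Camk2a the size of the change for P60 against P14 and the direction for P28 against P14 turned on P14 litter 1. Without that litter the P60 against P14 changes of 93660_at and 93659_at were -1.75 (adjusted p = 0.146) and -1.52 (adjusted p = 0.120), and those of P28 against P14 became -1.04 and -1.08. In the restricted set 93660_at was called, with a log2 change of -2.76 and an adjusted p of 0.0102. That call rested on P60 litters 2 and 3, both below the Bacillus level, while the left-out P60 litters 1 and 4 had the signals of 303 and 576 given above. Probe set 93659_at was not called in the restricted set, and was called only with array weights (limma adjusted p = 0.0471). On 93659_at P60 litters 2 and 3 gave 126 and 219, above the Bacillus level, and P60 litter 1 gave 32.8, below it. The 2 probe sets thus differed in which P60 litters were low.

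Camk2b encodes beta-CaMKII, which binds actin and sets the holoenzyme's sensitivity to calmodulin. Its only probe set, 100453_at, had signals of 7607, 7256 and 8322 at P14, 5979, 6115 and 5810 at P28, and 4387, 7916, 7639 and 7166 at P60. Every P28 litter was below every P14 litter, and at P60 only litter 1 was below the P28 range. The mean signal was 5968 ± 153 at P28 and 7728 ± 543 at P14 (SD, n = 3 each), a log2 change of -0.37 that did not pass (limma adjusted p = 0.762). P60, at 6777 ± 1623 (SD, n = 4), differed from P14 by -0.22 on the log2 scale (interval -0.71 to 0.26, adjusted p = 0.646), and in the restricted set by 0.00. In order of mean signal the ages ran P14, P60, P28, and neither P14 and P60 nor P60 and P28 differed beyond their spread.

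Camk2d encodes delta-CaMKII, best known from heart and present in many cell types. Probe set 169012_s_at gave 1150, 1834 and 1915 at P14, 1001, 1062 and 566 at P28 and 911, 835, 724 and 1168 at P60. All P28 litters were below the P14 litters, and of the P60 litters only litter 4 reached into the P14 range. Its log2 change was -0.88 for P28 against P14 (standard error 0.300, unadjusted p = 0.0117, limma adjusted p = 0.475) and -0.80 for P60 against P14 (standard error 0.281, unadjusted p = 0.0137, adjusted p = 0.204). The suffix s marks a probe set that may be shared between transcripts.

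The other probe sets of Camk2d were less uniform. On 105895_at the signals were 4958, 2104 and 3031 at P14, 1521, 2326 and 1972 at P28 and 1575, 2933, 1651 and 1569 at P60; the ages overlapped, and P14 litter 1 was the highest of all. The log2 change of -0.75 for P60 against P14 (unadjusted p = 0.0303, limma adjusted p = 0.266) was -0.43 without P14 litter 1 and -0.19 with the restricted arrays. Probe set 162860_r_at lay between 129 and 368 over all litters with a change of -0.32 (adjusted p = 0.618), and 93214_at, at 12.9 to 199, was above the chip median on 0 arrays and was not tested.

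Camk2g, the gene of gamma-CaMKII, which in neurons can carry calmodulin to the nucleus, was the only CaMKII gene whose probe sets all had higher mean log2 signals at P60 and at P28 than at P14, with all litters used. On 106603_at the signals were 2950, 2537 and 2760 at P14, 3316, 3229 and 3518 at P28, and 2979, 2778, 3187 and 2898 at P60. P28 stood above both other ages with no overlap, by 0.28 on the log2 scale against P14 (limma adjusted p = 0.739), and P60 was 0.18 lower than P28 (adjusted p = 0.911). On 112286_at the P28 litters (2898, 2260 and 2620) were again all above the P14 litters (1384, 2153 and 1936), by 0.51 (adjusted p = 0.656), whereas the P60 litters, at 3247, 2380, 2027 and 1840, overlapped both ages.

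The third probe set of Camk2g, 117137_at, had 489, 5828 and 5285 at P14, 5442, 3802 and 5476 at P28 and 3060, 3720, 5516 and 3116 at P60. P14 litter 1 was by far the lowest. With it the change for P60 against P14 was 0.56 (interval -0.85 to 1.96, limma adjusted p = 0.699), and without it -0.56 (interval -1.10 to -0.02, adjusted p = 0.244). The sign for this probe set of Camk2g thus rested on 1 litter, and without that litter it went against the other 2, at 0.16 and 0.18.

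Camk4 encodes CaMKIV, which phosphorylates the transcription factor CREB. Its tested probe set, 107473_at, gave 1993, 1205 and 1701 at P14, 906, 1273 and 1287 at P28 and 906, 1312, 1268 and 928 at P60. P14 litter 2 lay within the range of the later ages, and the other P14 litters were above all later ones. The log2 change was -0.53 for P60 against P14 (standard error 0.229, unadjusted p = 0.0379, limma adjusted p = 0.289) and -0.47 for P28 against P14 (adjusted p = 0.683). It was -0.38 without P14 litter 1 and -0.14 with the restricted arrays. Of the untested probe sets, 104455_at was at 134 to 218 and above the chip median on 2 arrays, and 105111_at was at 38.4 to 118 and above it on 0.

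Ppp3cb, which encodes the beta form of the catalytic subunit, calcineurin A, had the member probe set with the lowest p. Probe set 114621_at gave 14291, 10718 and 10644 in the P14 litters, 8447, 6935 and 7666 in the P28 litters and 5514, 6673, 8003 and 4780 in the P60 litters. Every later litter was below every P14 litter, and P28 and P60 overlapped. Mean signals were 11884 ± 2085 at P14, 7683 ± 756 at P28 (SD, n = 3 each) and 6243 ± 1409 at P60 (SD, n = 4). The log2 change for P60 against P14 was -0.94 (standard error 0.219, 95% interval -1.41 to -0.46), 0.523 times the P14 level, with a limma adjusted p of 0.0903, and the one for P28 against P14 was -0.62 (standard error 0.234, adjusted p = 0.529). It was -0.80 without P14 litter 1 (adjusted p = 0.0650) and -0.54 with the restricted arrays (adjusted p = 0.109). It passed with array weights and when P60 litter 3, the highest of its age, was left out.

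The other Ppp3cb probe sets gave smaller values. On 97989_at the signals were 812, 1189 and 1182 at P14, 727, 521 and 968 at P28 and 838, 607, 924 and 1110 at P60, and the 3 ages overlapped. Its log2 change was -0.29 for P60 against P14 and -0.52 for P28 against P14 (limma adjusted p = 0.613 and 0.689). Probe sets 105528_at and 109930_at, at 338 to 757 and 268 to 531, changed by -0.30 and -0.16 for P60 against P14 (adjusted p = 0.565 and 0.770), and without P14 litter 1 by -0.03 and 0.02. So all 4 probe sets of Ppp3cb pointed the same way with all litters, and their sizes ranged from -0.94 to -0.16.

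Ppp3ca encodes the alpha form of calcineurin A, the main catalytic form in brain. Its probe set 112874_at gave 2380, 3322 and 3448 at P14, 2509, 1712 and 2366 at P28 and 1863, 1994, 2663 and 1271 at P60. P14 litters 2 and 3 were above all later litters and P14 litter 1 was not. The log2 change was -0.66 for P60 against P14 (standard error 0.254, unadjusted p = 0.0231, limma adjusted p = 0.244), -0.83 without P14 litter 1 (adjusted p = 0.113) and -0.46 for P28 against P14 (adjusted p = 0.731).

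On Ppp3ca probe set 163643_i_at the signals were 26000 (litter 1), 16101 and 16056 at P14, 13698, 14525 and 16850 at P28 and 13150, 12230, 17154 and 12623 at P60, with overlap between all ages and a log2 change of -0.46 for P60 against P14 (limma adjusted p = 0.349). Probe set 95092_at had 10739, 3870 and 4744 at P14, 5979, 4736 and 4209 at P28 and 5390, 4820, 4927 and 6294 at P60. Here P14 litter 1 was the highest of all litters and P14 litter 2 was the lowest. The change for P60 against P14 was accordingly -0.13 with all litters (adjusted p = 0.862) and 0.31 without P14 litter 1 (adjusted p = 0.377). Without that litter, therefore, the 3 Ppp3ca probe sets disagreed in direction.

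Ppp3r1 encodes calcineurin B, the calcium-binding regulatory subunit that the enzyme needs for activity. Probe set 99183_at gave 13990, 9311 and 11086 at P14, 9197, 10448 and 8286 at P28 and 5587, 9979, 8923 and 7661 at P60. The mean was highest at P14 and lowest at P60, and each age overlapped the next. Its log2 change was -0.52 for P60 against P14 (95% interval -1.04 to -0.00, unadjusted p = 0.0484, limma adjusted p = 0.313), -0.37 without P14 litter 1 and -0.11 with the restricted arrays. The second probe set of Ppp3r1, 169522_r_at, had 581, 738 and 585 at P14, 750, 623 and 530 at P28 and 633, 985, 645 and 590 at P60, with a change of 0.14 (adjusted p = 0.815). With the restricted arrays, which leave out P14 litter 1 and, on chip C, P60 litter 2 (985), its change was -0.07. The 2 probe sets then had the same sign.

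The 2 probe sets of Nrgn disagreed. On chip C, 166833_at gave 79760, 64371 and 69349 at P14, 38844, 42608 and 48944 at P28, and 38535, 35646, 53879 and 52109 at P60. Every P28 and every P60 litter was below every P14 litter, and P28 and P60 overlapped. The log2 change was -0.68 for P60 against P14 (standard error 0.253, interval -1.22 to -0.13, unadjusted p = 0.0189, limma adjusted p = 0.229) and -0.71 for P28 against P14 (standard error 0.270, unadjusted p = 0.0206, adjusted p = 0.525). Without P14 litter 1 the change for P60 against P14 was -0.59 (adjusted p = 0.232), and with the restricted arrays it was -0.49 (adjusted p = 0.222).

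On chip A, Nrgn probe set 96273_at gave 1715, 5130 and 6756 at P14, 4797, 4883 and 3977 at P28 and 3024, 5880, 3538 and 4891 at P60. P14 litter 1 was the lowest of all litters, and P14 litter 3 was the highest. With all litters the change for P60 against P14 was 0.10 (interval -0.77 to 0.97, limma adjusted p = 0.921), and without P14 litter 1 it was -0.49 (interval -1.02 to 0.04, adjusted p = 0.302). Without that litter both Nrgn probe sets thus had negative values, and neither passed.

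**Figure D2:**
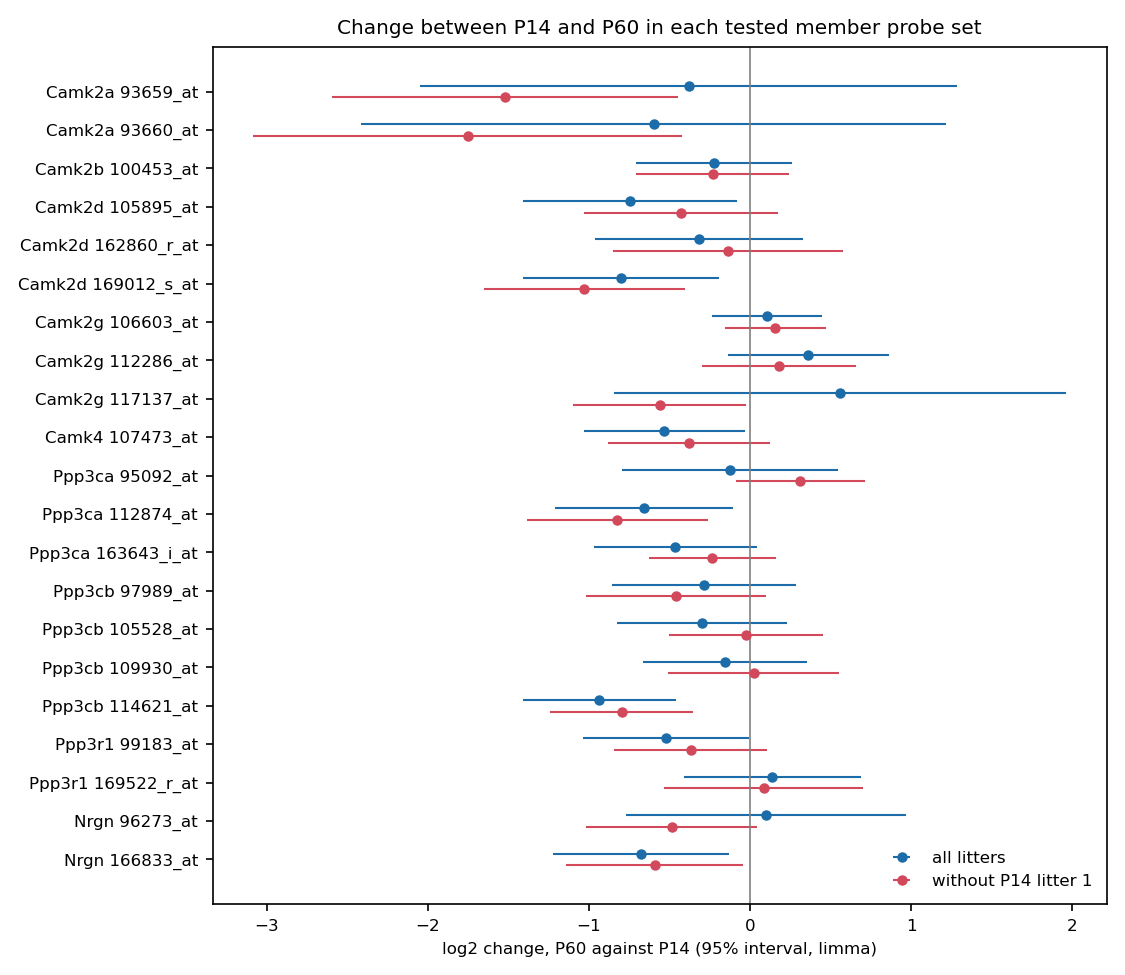
Log2 change in signal of P60 against P14 for the 21 tested member probe sets, with 95% intervals from limma, using all litters (blue) and without P14 litter 1 (red). The sign differs between the estimates for Camk2g 117137_at, Ppp3ca 95092_at, Ppp3cb 109930_at and Nrgn 96273_at, and the intervals of both Camk2a probe sets span more than those of most other members.

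How far P14 litter 1 stood from its age mates differed among the members. Its log2 signal minus the mean of P14 litters 2 and 3 ran from -3.47 to 1.32, with a median of 0.15, and exceeded 1 in size in 5 of 21 member probe sets (23.8%), against 21.8% of all tested probe sets. These 5 were both probe sets of Camk2a (-3.47 and -3.43), Camk2g 117137_at (-3.36), Nrgn 96273_at (-1.76) and Ppp3ca 95092_at (1.32). The members were thus about as often affected as other probe sets, but the affected ones include the only probe sets for Camk2a.

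**Figure D3:**
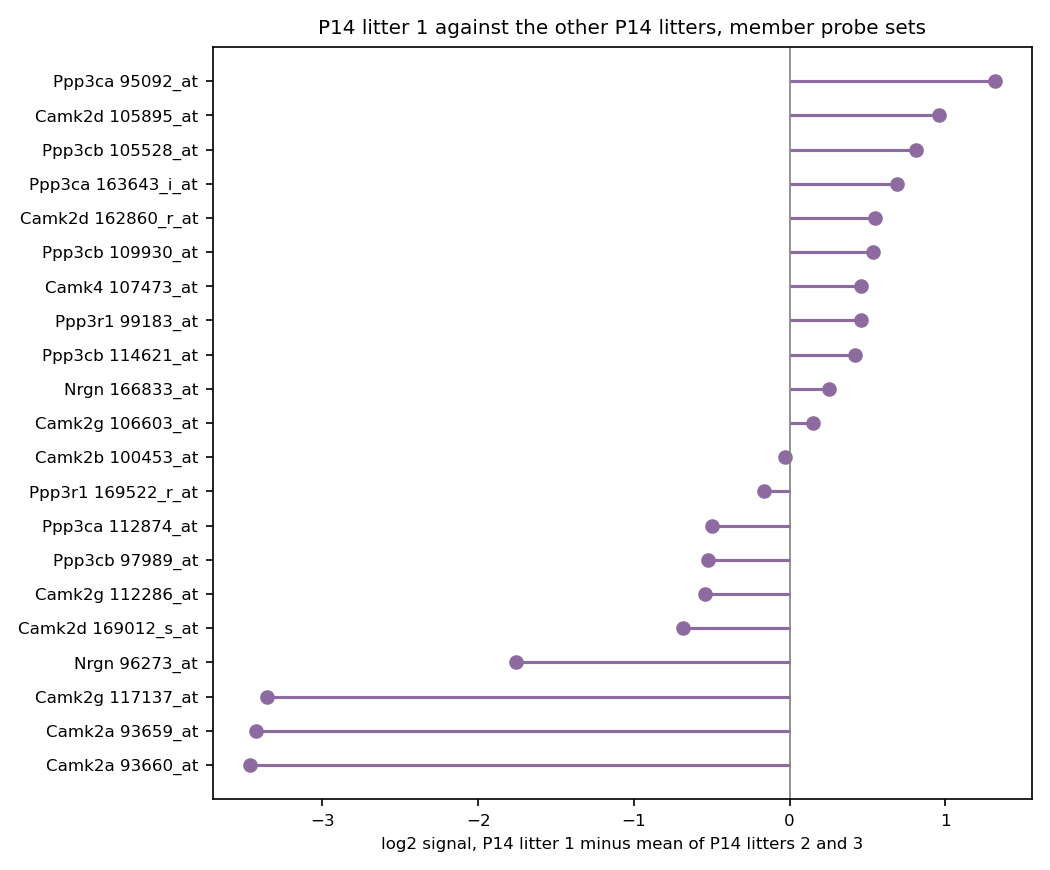
Log2 signal of P14 litter 1 minus the mean of P14 litters 2 and 3 for each of the 21 tested member probe sets, sorted by size. The 4 lowest lie between -3.47 and -1.76 and the highest is 1.32.

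Whether the subunit genes of 1 enzyme changed unequally was asked within litters, from the difference of their log2 signals on chip A; the zero point of such a difference has no meaning, only its change does. Camk2a minus Camk2b (93660_at and 100453_at) was -6.78, -3.77 and -2.92 in the P14 litters, -3.47, -4.29 and -4.28 in the P28 litters and -3.69, -6.02, -6.20 and -3.55 in the P60 litters. The P60 mean minus the P14 mean was -0.37. A two-sided exact permutation test of the 3 ages together gave p = 0.709 from 4200 arrangements (adjusted over the 2 pairs tested, 0.876). In the restricted set P60 minus P14 was -2.76, on the same low Camk2a signals of P60 litters 2 and 3. The exact permutation test of the 3 ages together then gave p = 0.0286 from 210 arrangements, not adjusted over the 2 pairs. Ppp3ca minus Ppp3cb (95092_at and 97989_at) was 3.66, 1.67 and 1.97 at P14, 2.97, 3.09 and 2.08 at P28 and 2.63, 2.91, 2.37 and 2.46 at P60. The ages overlapped, P60 minus P14 was 0.16, and the exact permutation test of the 3 ages together gave p = 0.876. Without P14 litter 1, P60 minus P14 was 0.77, and the exact permutation test gave p = 0.0849 from 1260 arrangements, also not adjusted over the pairs. The Ppp3cb probe set with the lowest p, 114621_at, is on chip B and was not part of this difference. The result on chip A therefore covers only these 2 probe sets. The mean over all tested probe sets of each gene, 114621_at among them, was also used. P60 minus P14 was then 0.0016 for Ppp3ca minus Ppp3cb and -0.27 for Camk2a minus Camk2b (exact permutation p = 0.918 and 0.749).

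**Figure D4:**
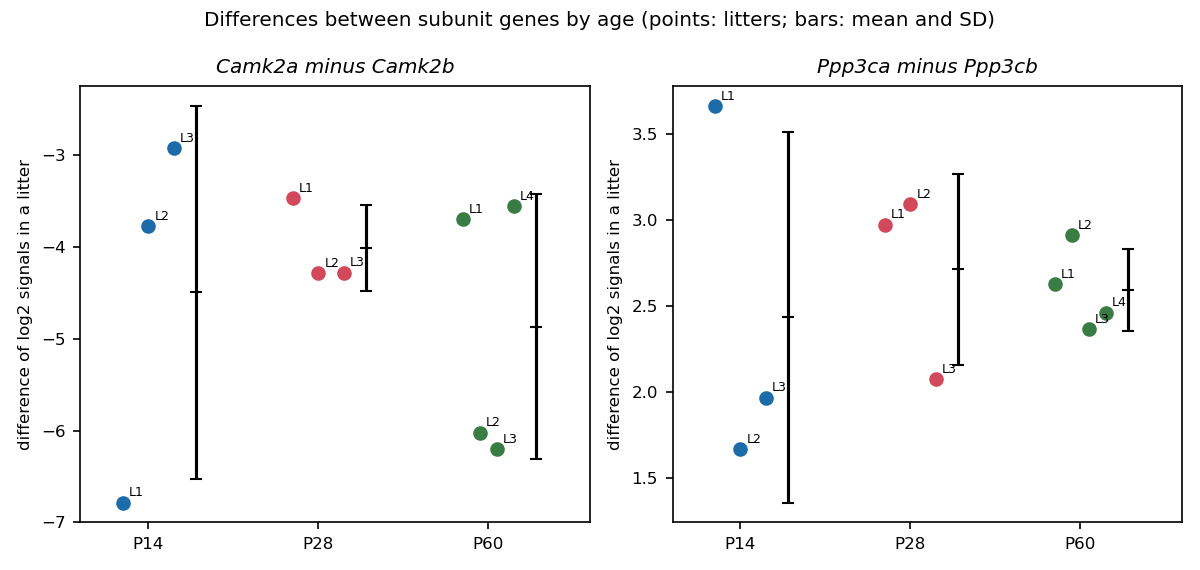
Difference of log2 signals between subunit genes in each litter (points, L1 to L4) with the mean and SD of each age (bars), for Camk2a minus Camk2b and Ppp3ca minus Ppp3cb. The 3 ages overlap in both panels, and P14 litter 1 is the lowest point on the left, at -6.78, and the highest on the right, at 3.66.

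The genes whose signals most closely followed 1 probe set each of Camk2a and Nrgn were sought among the probe sets with 1 symbol on chip A. Pearson's correlation of log2 signals over the 10 litters was used. For Camk2a 93660_at, out of 6154, these were Snx17 (r = 0.947), Sidt2 (0.941), Tmed9 (0.932), Yipf1 (0.904) and Hr (0.903). For Nrgn 96273_at, out of 6155, they were Slc37a4 (0.960), Grina (0.959), Snd1 (0.9505), Gatd3a (0.947) and Slc22a17 (0.945). P14 litter 1 was below the mean of the other P14 litters in all 10, with log2 differences of -0.43 (Sidt2) to -2.26 (Snx17), and without that litter r was 0.851 (Hr) to 0.934 (Grina). The values within a litter share an array, and no test was made. Nrgn 96273_at correlated with the other Nrgn probe set, 166833_at on chip C, at r = -0.31, and at 0.32 without P14 litter 1. Between the 2 Camk2a probe sets r was 0.68, and 0.48 without that litter. The likeness thus describes 1 probe set of each gene.

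Other genes of the pathway were taken from 8 lists of 75 genes, of which 65 had a probe set with 1 symbol and 60 could be tested, on 1 probe set each. For P60 against P14 limma called 1 of 60, lower at P60, and 5 were lower and 2 higher at an unadjusted p under 0.05, with a median log2 change of -0.03. For P28 against P14 and for P60 against P28 it called 0 of 60, with 6 lower and 2 higher and with 1 lower and 2 higher at an unadjusted p under 0.05. The shares of all tested probe sets at the same thresholds are those given above for the members.

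The gene called was Gap43, which encodes a growth cone protein that, like neurogranin, binds calmodulin at low calcium. Its probe set 102389_s_at had signals of 3187, 3498 and 3013 at P14, 2001, 1969 and 2283 at P28, and 1316, 1454, 1535 and 1533 at P60. The 3 ages did not overlap, and P60 was the lowest. Gap43 fell by 1.13 on the log2 scale at P60 against P14 (standard error 0.168, limma adjusted p = 0.0179) and was 0.62 lower at P28 than at P14 (adjusted p = 0.407). The call held in 13 of 19 other settings, among them the restricted set (adjusted p = 0.0123) and the one without P14 litter 1 (adjusted p = 0.00578). It was lost without P14 litter 2 or 3 and without P60 litter 1, 2 or 4 (adjusted p = 0.0527 to 0.0878). It was also lost with the litter number as a block (limma adjusted p = 0.161). The other 2 genes of the list of calmodulin and calmodulin-binding buffers did not pass.

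None of the other 7 lists had a called gene with all litters and no array weights. The genes with the largest changes for P60 against P14 are given as values. Among the calcineurin partners and regulators (9 tested), Rcan3, a gene of the calcipressin family of calcineurin inhibitors, was at -1.64 (limma adjusted p = 0.0835), with mean signals of 79.5 at P60, below the Bacillus level, and 313 at P14, so that its size depends on the constant added before taking logs. A second Rcan3 probe set was at 0.43. Ppp3cc, another calcineurin A gene, was at -0.46 (-0.24 without P14 litter 1), and Akap5, which anchors calcineurin at the postsynaptic density, at -0.45. Both genes had P60 signals below the Bacillus level in some litters. Among the 8 regulators and subunits of protein phosphatase 1, the phosphatase downstream of calcineurin, Ppp1r1b, the gene of DARPP-32, a calcineurin substrate, was at 0.81 (adjusted p = 0.0920). Its signals were 1654, 1795, 1314 and 1717 in the P60 litters and 946, 724 and 1039 in the P14 litters, with no overlap. Ppp1r1b was called with array weights and when P60 litter 3 was left out. Ppp1r9a and Ppp1r9b, the neurabin and spinophilin genes, were at -0.60 and 0.42, and at -0.27 and 0.14 without P14 litter 1.

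Among the postsynaptic partners and substrates of CaMKII (9 tested), the scaffold genes Shank2 and Shank1 were at -0.90 and 0.75 (limma adjusted p = 0.248 and 0.343). A second Shank2 probe set was at -0.84. Shank1 signals were 637, 188, 325 and 650 at P60 and averaged 220 at P14, with the Bacillus level at 153. The Shank1 change ran from 0.085 to 1.05 over 19 other settings. Gria1, whose AMPA receptor subunit is phosphorylated by CaMKII, was at 0.70 (limma adjusted p = 0.139). Gria1 signals were 1764, 1631, 1723 and 2001 at P60 and 836, 1349 and 1112 at P14, which did not overlap, while its other 2 tested probe sets were at 0.15 and 0.01. Among the 9 other calmodulin-stimulated enzymes and pumps, the adenylyl cyclase genes Adcy8 and Adcy1 were at -0.64 and -0.62 (adjusted p = 0.282 and 0.175), with 2 other Adcy1 probe sets at 0.76 and -0.10, and Nos1, the gene of neuronal nitric oxide synthase, at 0.56 (adjusted p = 0.355).

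Of 9 other calmodulin-regulated kinases and their activators, Dclk1, Pnck and Camk1d were at -0.50, -0.48 and -0.46 for P60 against P14 (limma adjusted p = 0.516, 0.651 and 0.490). Pnck had signals of 571, 850, 998 and 520 in the P60 litters and 311, 1697 and 1822 in the P14 litters. P14 litter 1 was the lowest of these. Without that litter Pnck was called, with a log2 change of -1.26 (adjusted p = 0.0232), and it was also called in the restricted set (-0.90, adjusted p = 0.0260) and with array weights (-1.34, adjusted p = 0.00312), while its other 2 tested probe sets were at -0.06 and -0.50 with all litters. Another probe set of Camk1d went the opposite way, at 0.55 with no overlap between P60 and P14 (adjusted p = 0.206), and a further one was at -0.42. The other tested probe sets of Dclk1 ran from -1.41 to 0.38; one of them, at -1.23, had no overlap (adjusted p = 0.0592). Without P14 litter 1 the first probe sets of Dclk1 and Camk1d were at 0.015 and 0.016.

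The CaMKII inhibitor genes Camk2n1 and Camk2n2 were at -0.34 and -0.07 for P60 against P14, and at 0.073 and -0.39 without P14 litter 1; a second Camk2n1 probe set was at 0.21 with all litters. Of 11 transcription factors and coactivators downstream of CaMKIV or calcineurin, Crtc1, a CREB coactivator that calcineurin brings to the nucleus, was at 0.58, Nfatc3 at 0.28 and Mef2d at -0.28 (limma adjusted p = 0.368, 0.703 and 0.609). In P14 litter 1 the Crtc1 signal was 597, against 1671 in both other P14 litters, and without that litter Crtc1 was at 0.11, Nfatc3 at 0.46 and Mef2d at 0.057. Second probe sets of Crtc1 and Mef2d were at -0.30 and 0.09 with all litters.

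**Figure D5:**
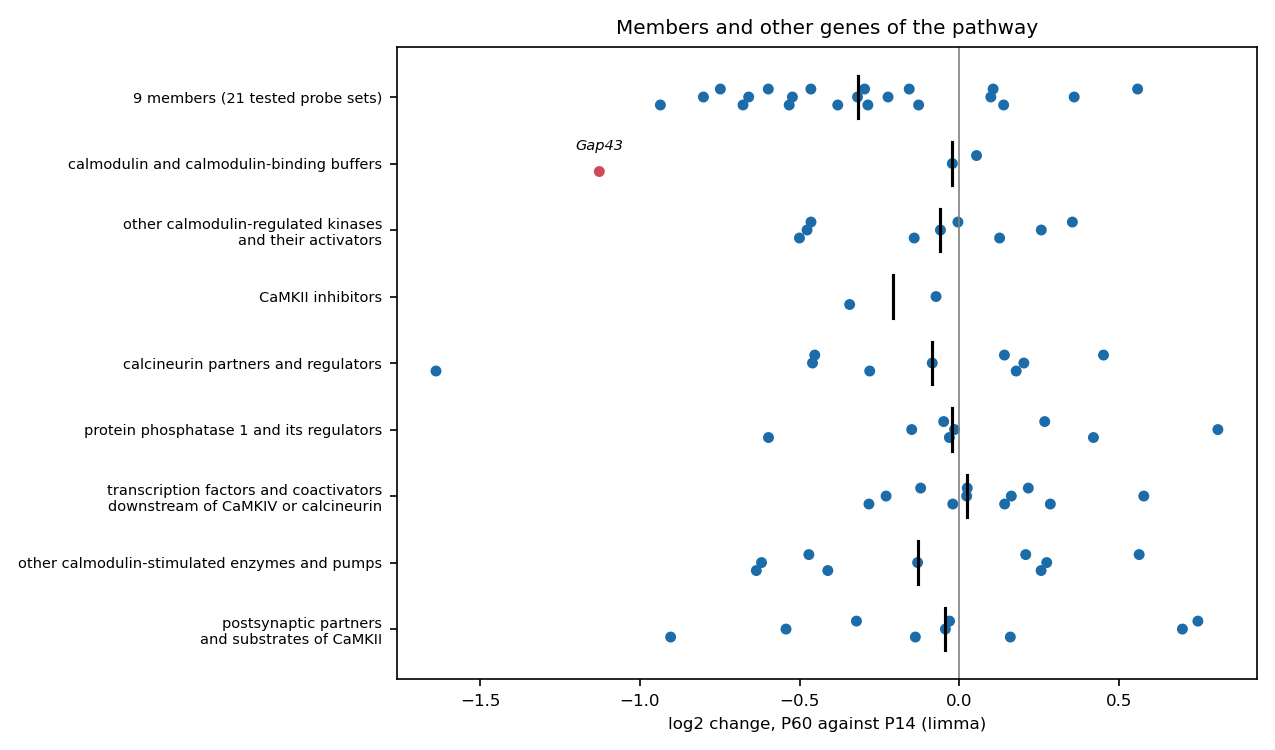
Log2 change of P60 against P14 for the 21 tested member probe sets (top) and for the 60 tested genes of 8 pathway lists, 1 point per probe set or gene, with the median of each row as a vertical bar and called genes in red. Gap43, at -1.13, is the only called point, and the members' median is -0.32.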

How the data were processed

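The deposited value of a probe set on an array is a signal intensity from MAS5, as the submitters' processing notes name it (version not given in the sources used here), with the 2% trimmed mean of every array at 500.1 to 500.4. No detection calls or probe-level values were used. Groups came from the sample labels, with each litter counted once per chip type. Symbols came from the arrays' platform annotation, updated through the gene ID. Of the probe sets, 10855, 10603 and 7739 on chips A, B and C had 1 symbol, 396, 178 and 150 had several, and 1237, 1696 and 4045 had none listed, and probe sets with several gave no gene its name.

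To each signal the 20th percentile of the chip type (38.6, 57.8 and 44.0) was added before log2 was taken, so a log2 change understates that of dim probe sets. Probe sets above the chip median (207, 252 and 183) on at least 3 arrays entered, array controls excepted. Each chip type was fitted with limma 3.58.1 in R 4.3.3 (lmFit, eBayes with a variance trend) with age as the only term and all 10 litters, with p-values adjusted by Benjamini-Hochberg across the 3 chip types at once. The code was tested on simulated data whose planted changes were larger than those of the members with all litters. That test does not show how well changes of the members' size are found. The p-values assume independent litters. Precision is limited by how few arrays there are.

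The Bacillus level is the 95th percentile of 15 control probe sets (98.4, 153 and 252 on chips A, B and C). Members, lists and the restricted set of arrays were chosen with earlier results of these data known. Named pathway genes are every called gene of a list, or otherwise its 3 with the largest P60 against P14 change; a gene was represented by its probe set on chip A, else B, else C, with the highest mean log2 signal. Alternatives were other constants, no filter, quantile normalization, no variance trend, array weights, adjustment within chips, the litter number as a block, each litter left out, and the restricted set of arrays. For the differences between subunit genes, the mean over the tested probe sets of a gene was used too.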

Additional observations from a re-analysis of the deposited data

Results flagged for a closer look

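At P60, the age with 4 litters, each of the 21 tested member probe sets was examined for a litter far from the rest, and 2 had one, both in P60 litter 2. Chance alone gives about 1 such case in 20 groups. Camk2d 105895_at had a signal of 2933 in P60 litter 2 and between 1569 and 1651 in the other P60 litters, so that the gap made up 0.940 of the range. Ppp3r1 169522_r_at had a signal of 985 in P60 litter 2 and between 590 and 645 in the other P60 litters, a gap of 0.859 of the range.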

How the results depend on the processing

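The member counts of 0 held in every comparison with either other constant, with no filter on low signals, with quantile normalization, without a variance trend, with adjustment within chip types and with the litter number as a block. With array weights, 3 member probe sets were called for P28 against P14 (5.61% of all tested probe sets), 7 for P60 against P14 (17.5% of all) and 6 over the 3 ages (14.6% of all), and 7 and 11 pathway genes for P28 and for P60 against P14. The restricted set called 1 member probe set for P60 against P14 (2.13% of all) and 1 over the 3 ages (1.07% of all), and 3 pathway genes for P60 against P14, Gap43, Pnck and Cacng2. Leaving out 1 litter at a time gave 0 to 1 members for P60 against P14 (1 without P60 litter 3) and 0 to 2 pathway genes. Gap43 and Pnck were called without P14 litter 1, and Gap43 and Ppp1r1b without P60 litter 3. The count was 0 without P14 litter 2 or 3 and without P60 litter 1, 2 or 4. The labels do not say whether the litter numbers pair the litters of different ages. Of 27 correlations between litters of the same number, 4 exceeded 0.1. A litter was most like the same number of another age in 22 of 54 cases. These values do not settle whether the litters are paired. With the number as a replicate block, 0 pathway genes were called for P60 against P14 (Gap43, adjusted p = 0.161 in limma).

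Over 19 alternatives, 88 of 1197 log2 changes of the members turned their sign, and none of these was called; 33 of the 88 came from the restricted set and the fit without P14 litter 1. Single litters moved the changes for P28 against P14 between -1.08 and 0.66 for Camk2a 93659_at, -1.04 and 0.95 for Camk2a 93660_at, -0.53 and 0.20 for Ppp3ca 95092_at, -0.37 and 0.60 for Nrgn 96273_at, -0.23 and 0.11 for Ppp3cb 109930_at, -0.20 and 1.52 for Camk2g 117137_at, -0.34 and 0.051 for Camk2d 162860_r_at and -0.12 and 0.11 for Ppp3r1 169522_r_at. For P60 against P14 they moved between -1.52 and 0.21 for Camk2a 93659_at, -1.75 and 0.24 for Camk2a 93660_at, -0.42 and 0.31 for Ppp3ca 95092_at, -0.49 and 0.49 for Nrgn 96273_at, -0.32 and 0.022 for Ppp3cb 109930_at, -0.56 and 1.15 for Camk2g 117137_at and -0.018 and 0.24 for Ppp3r1 169522_r_at. Among pathway genes the range was -0.46 to 0.057 for Mef2d, -0.39 to 0.097 for Camk2n2, -0.64 to 0.073 for Camk2n1, -0.77 to 0.016 for Camk1d and -0.82 to 0.015 for Dclk1.

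With array weights the changes that turned for P28 against P14 were those of Camk2a 93659_at (-0.9996) and 93660_at (-1.02), Ppp3ca 95092_at (0.14), Nrgn 96273_at (-0.37), Ppp3cb 105528_at (0.043) and 109930_at (0.0072), Camk2g 117137_at (-0.069), Camk2d 162860_r_at (0.15) and Ppp3r1 169522_r_at (0.026). For P60 against P14 they were those of Ppp3ca 95092_at (0.34), Nrgn 96273_at (-0.44) and Camk2g 117137_at (-0.59). In the restricted set the changes that turned for P28 against P14 were those of Camk2a 93659_at (-1.08) and 93660_at (-1.04), Ppp3ca 95092_at (0.20), Nrgn 96273_at (-0.37), Ppp3cb 109930_at (0.11), Camk2g 117137_at (-0.20) and Camk2d 162860_r_at (0.051). For P60 against P14 they were those of Camk2b 100453_at (0.0011), Ppp3ca 95092_at (0.18), Nrgn 96273_at (-0.37), Ppp3cb 105528_at (0.030), Camk2g 117137_at (-0.29), Camk2d 162860_r_at (0.020), Ppp3r1 169522_r_at (-0.073), Mef2d (0.21), Ppp1r9a (0.041), Camk2n1 (0.12), Camk1d (0.22) and Dclk1 (0.36). A constant at the chip median turned both Camk2a changes for P28 against P14 (-0.17 and -0.13), quantile normalization gave 0.088 for Ppp3ca 95092_at and 0.082 for Camk2n2 for P60 against P14, and the replicate block gave 0.019 for Camk2n2.

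The Camk2a minus Camk2b difference for P60 against P14 was -2.76 in the restricted set and -1.52 to 0.41 with single litters left out. The exact permutation test of the 3 ages together gave p = 0.0286 in the restricted set, not adjusted over the 2 pairs. For Ppp3ca minus Ppp3cb the range with single litters left out was -0.22 to 0.77, and the restricted set gave 0.82 (exact permutation p = 0.229). With the mean over the tested probe sets of a gene the 2 differences were -0.27 and 0.0016. The cause of these changes was not tested. Signals lay below the Bacillus level at P60 for Rcan3 and in some litters of other genes, among them Camk2a, Camk2d 162860_r_at, Ppp3cc and Akap5. Such signals limit what the sizes of these changes can show.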
